A study of Homo sapiens with 11 samples.

Results

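The subject here is a set of 72 transcript features whose RNA was higher in both knockouts of a cap methyltransferase than in wild-type HEK293T cells, a human embryonic kidney line carrying the SV40 large T antigen. A feature is a deposited transcript row, or several rows with identical counts in all 11 libraries that were merged into 1. A feature was a member if its mean RNA level over the 4 knockout libraries was at least 2 CPM (a count scaled to the size of its library) and if each of those libraries was at least 1.4 times the higher of the 2 wild-type libraries. One stretch of table lines was left out beforehand, and 0 features there met the rule. The 72 members were 0.193% of the 37301 features at or above the RNA minimum, of 66016 merged features in all. The mirrored rule, with every knockout library that far below the lower wild-type library, was met by 109 features. Its minimum of 2 CPM was set on the wild-type mean, so these were not drawn from the same 37301 features.

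The first transcribed nucleotide of many vertebrate messenger RNAs is an adenosine next to the cap. In many of these transcripts it carries a further methyl group, at its N6 position, written there by the methyltransferase PCIF1, which associates with RNA polymerase II. The labels call the enzyme CSAM. Ribosome profiling sequences the short fragments that a ribosome shields from nuclease, so the footprint count of a transcript follows both how much of the RNA there is and how densely ribosomes occupy it. The RNA assay counts fragments of the transcript itself.

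RNA was sequenced in 2 libraries each of wild type (labelled WT), of CSAM-KO#1, here knockout 1, and of CSAM-KO#2, here knockout 2. Footprints were sequenced in 1 wild-type library and in 2 libraries of each knockout. No treatment, time point or rescue is given in the labels, which also do not say whether a knockout is a single clone or whether replicates came from separate cultures, nor whether RNA and footprints came from the same cells. P-values therefore measure only the spread between these libraries, which may be technical. Totals over merged features were 40346318 to 63551193 counts for RNA and 8387752 to 17437453 for footprints. The transcript identifiers were paired with no gene name in the tables used here (0 of 72 members matched), so members are given by identifier, their functions are not described, and the targeted gene and the markers of the cell line were not checked.

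Many members lay within a few lines of another member in the deposited table. How closely features lie in general was not compared. Members at most 20 lines from the next were joined into a cluster, which gave 30 clusters between lines 1898 and 173283, the closest of them 279 lines apart. In 15 clusters there was 1 member, and the other 15 clusters held 57 members. Members of a cluster often had nearly the same counts and are not treated as independent, so each cluster is represented below by its member with the highest mean knockout RNA level. The 3 largest clusters held 8, 8 and 7 members, or 23 of 72. They are named here by their representatives uc003irj.2 (listed length 424), uc001rog.3 (listed length 807) and uc002nyl.4 (listed length 640).

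For the 3 largest clusters, RNA ratios of members are given beside those of the lines around them. The rule chose members on RNA, and neighbours are features that failed it. The gap between them is therefore largely fixed in advance, is a description and was not tested. The 8 members around uc003irj.2 spanned 17 lines and had RNA ratios, mean knockout over mean wild-type CPM, of 2.86 to 3.17. The other features of at least 2 CPM within 20 lines of them, 8 in number, had ratios of 0.958 to 1.36. Around uc001rog.3, the 8 members spanned 14 lines with ratios of 2.32 to 2.86. Their 9 neighbours had a median ratio of 0.879, and 1 of them reached 2.09 without meeting the rule. The 7 members around uc002nyl.4 spanned 9 lines with ratios of 2.11 to 2.27, against a median of 1.05 and a highest value of 1.41 over 13 neighbours. Over all 30 clusters, 270 neighbours met the RNA minimum without being members. Their median ratio was 1.03, and 17 of them reached 1.4.

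**Figure D1:**
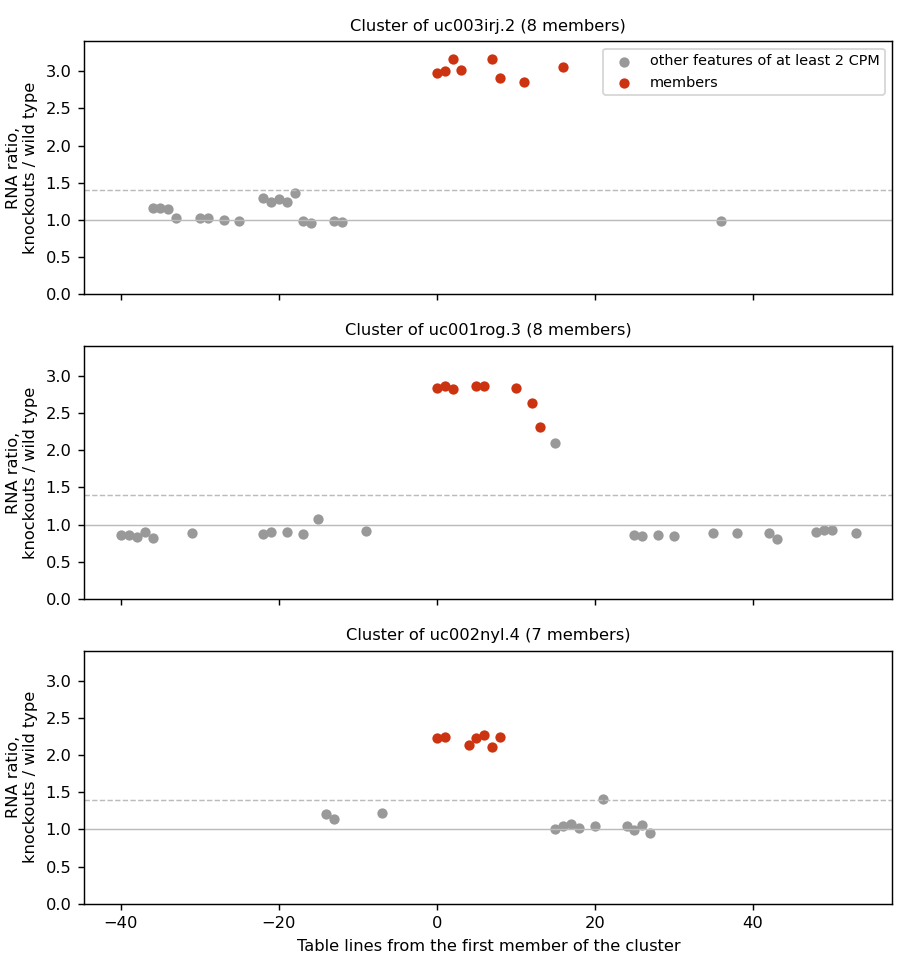
RNA ratio (mean knockout CPM over mean wild-type CPM, vertical axis) of features with at least 2 CPM in the knockouts, against their distance in table lines from the first member of each of the 3 largest clusters. Red points are members and grey points other features, the solid line marks equal levels and the dashed line a ratio of 1.4. Members, chosen on RNA, stand between 2.11 and 3.17. Within 20 lines of a member, the highest neighbours reach 1.36, 2.09 and 1.41 in the clusters of uc003irj.2, uc001rog.3 and uc002nyl.4.

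The RNA values that follow chose the members, so they are a description and were not tested. Most members were weakly expressed, with a median of 1.61 CPM in wild type and 3.08 CPM in the knockouts. The median ratio was 1.97, the lowest 1.5 and the highest 3.17, against a median of 0.972 over all features at or above the RNA minimum. The 2 wild-type libraries differed by a factor of 1.00 to 1.54 within members, with a median of 1.09, and the same median over all features at the minimum was 1.10.

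Among representatives, uc003irj.2 had the highest RNA ratio. Its RNA stood at 1.04 and 0.899 CPM for wild type, 2.53 and 1.96 for the knockout 1 pair, then 3.62 and 3.54 for the knockout 2 pair. The groups do not overlap, and knockout 2 lies above knockout 1. For uc001rog.3 the values were 5.92 and 6.6 CPM for wild type, 18.9 and 19.1 for the knockout 1 pair, then 15.9 and 17.8 for the knockout 2 pair. Here knockout 1 was the higher. The features uc010sla.2 (listed length 830) and uc010skz.2 (listed length 857) had the same RNA counts as uc001rog.3 and differed from it in a few footprint counts only.

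RNA of uc003fxr.3 (listed length 334) measured 0.803 and 0.779 CPM for wild type, 1.73 and 1.71 for the knockout 1 pair, then 2.15 and 2.76 for the knockout 2 pair. RNA of uc003uew.4 (listed length 196) measured 2.69 and 2.61 CPM for wild type, 7.46 and 6.96 for the knockout 1 pair, then 5.55 and 4.79 for the knockout 2 pair. These 2 transcripts were ordered in opposite ways between the knockouts, both above wild type. The remaining named representatives with high ratios were uc003fej.4 (ratio 2.26, listed length 968), uc002nyl.4 (2.24), uc004ely.4 (2.22, listed length 397) and uc001azw.4 (2.1, listed length 174).

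The most abundant member was uc003ydk.3 (listed length 251), which also headed a cluster of 3 members. Its RNA measured 52.7 and 54.2 CPM for wild type, 91.6 and 88.8 for the knockout 1 pair, then 122 and 116 for the knockout 2 pair. Next in abundance among representatives came uc033fan.1 (listed length 305). It had 21.5 and 23.9 CPM for wild type, 37.0 and 38.2 for the knockout 1 pair, then 37.5 and 37.6 for the knockout 2 pair. Its knockouts stood at the same level. The representative uc003wlz.4 (listed length 155) showed the widest wild-type spread of all representatives, at 10.4 and 6.74 CPM, against 15.3 and 15.7 for the knockout 1 pair, then 15.2 and 17.5 for the knockout 2 pair. The representative uc002jsk.2 (listed length 195) measured 8.72 and 9.0 CPM for wild type, 14.6 and 16.2 for the knockout 1 pair, then 13.0 and 15.3 for the knockout 2 pair.

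**Figure D2:**
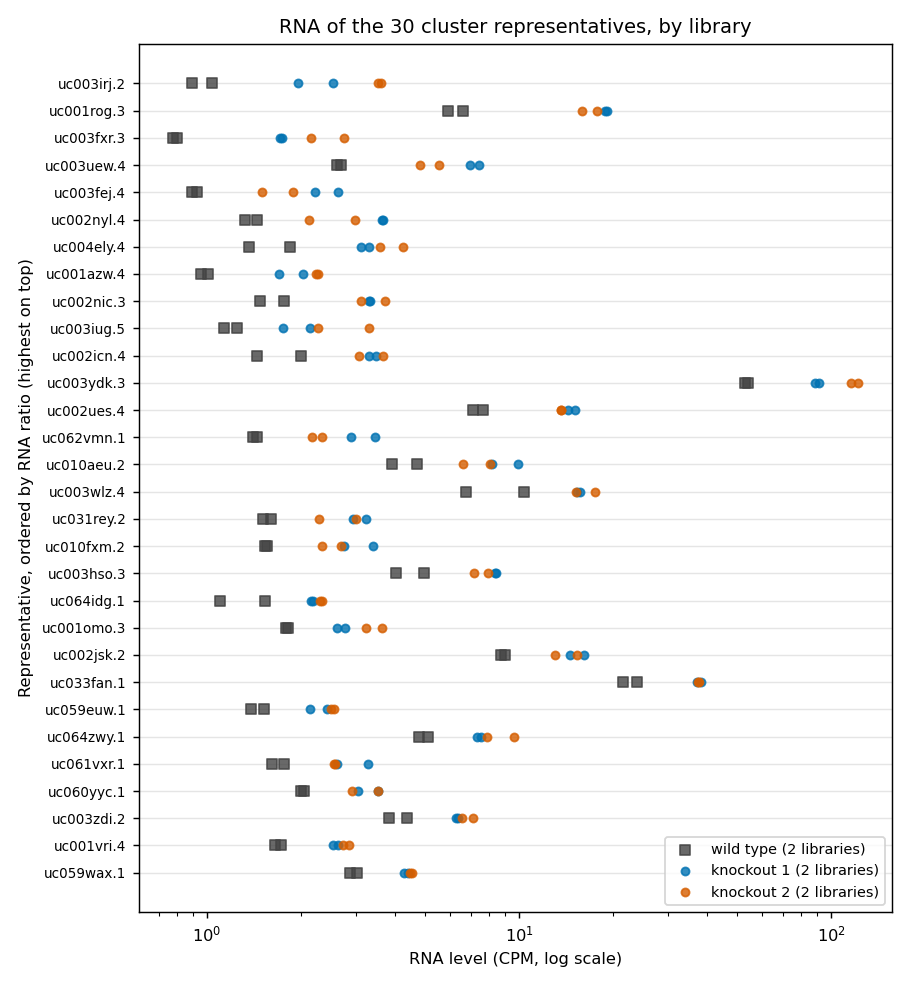
RNA level (CPM, log scale) of the 30 cluster representatives in each of the 6 RNA libraries, with grey squares for wild type, blue circles for knockout 1 and orange circles for knockout 2. Rows are ordered by the ratio of mean knockout to mean wild-type level, from 3.01 for uc003irj.2 at the top to 1.5 for uc059wax.1 at the bottom, and every knockout point lies to the right of both wild-type points because the rule required it.

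Just inside the threshold stood uc064idg.1 (listed length 54) and uc059euw.1 (listed length 127), whose lowest knockout library was 1.402 and 1.403 times the higher wild-type library. Just outside stood uc003hsr.4 (listed length 131) and uc011afi.1 (listed length 132), both at 1.395. The first of these lies between members of the cluster of uc003hso.3. Their overall ratios of 1.78 and 1.6 were similar to those of the pair just inside, 1.70 and 1.65.

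Footprints were not used in the choice, and they rose for 37 of the 72 members. The 37 (51.4%) were called higher in the mean of the knockouts than in wild type by edgeR's quasi-likelihood test with Benjamini-Hochberg adjustment over all features (adjusted p under 0.05). The background was 4.60% of 44410 features tested called higher. No member (0) was called lower, where 6.67% of all features were, and at an unadjusted p under 0.05 the number lower was also 0. After adjustment it was 0 with limma-voom and DESeq2, but DESeq2 gave an adjusted p to only 12 members. It called 8 of these higher, where 2.76% of all features with an adjusted p were. Of the tested members, 18 entered the test only through the knockouts, where they are high, so the 0 is no support by itself. Too few counts kept 2 members out of the test, and 33 were tested without a call. The median log2 footprint change over the 70 tested members was 0.79, against 0.01 over all features tested.

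Counted by cluster, 13 of 30 representatives (43.3%) had higher footprints, with a median log2 change of 0.70 over the 29 tested. Of these 13, 2 (uc003irj.2 and uc001omo.3) had under 10 wild-type footprint counts and entered the test only through the knockouts, where they are high. The 3 largest clusters held 22 of the 37 calls, and 11 of these 22 entered the test in that way, so their number is no support by itself. Outside them 15 of 49 members were called higher (30.6%), with a median log2 change of 0.53. In 56 of 72 members (77.8%) all 4 knockout libraries lay above the wild-type footprint library, against 34.9% of the features at or above the RNA minimum.

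Wild-type footprint depth limits these calls. There was 1 wild-type library, assumed in the fit to vary like the knockout pairs, and its median count over members was 15. Of the tested members, 18 had under 10 wild-type footprint counts and passed the filter on low counts only through the knockout libraries. They hold 12 of the 37 calls, and 25 of the 52 members with at least 10 wild-type counts were called.

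Most of the largest footprint changes were in the 3 largest clusters. Footprints of uc002nyl.4 measured 1.83 CPM for wild type (16 counts), 11.2 and 13.0 for the knockout 1 pair, then 9.06 and 10.4 for the knockout 2 pair. All knockout libraries lay far above the wild-type value. edgeR put the log2 change at 2.46 ± 0.31 (SE; adjusted p = 2.14e-09). Its 6 neighbouring members gave footprint ratios of 5.87 to 6.52 together with it, on RNA ratios of 2.11 to 2.27.

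Footprints of uc003irj.2 measured 0.685 CPM for wild type (6 counts), 2.85 and 3.22 for the knockout 1 pair, then 5.33 and 5.48 for the knockout 2 pair. The knockouts did not overlap, and knockout 2 was the higher, as it was in RNA. edgeR put the log2 change at 2.45 ± 0.47 (SE; adjusted p = 9.41e-05). With so few wild-type counts, the ratio of pooled knockout counts to wild type was 6.42 with an exact 95% interval of 2.90 to 17.7, which covers counting error only.

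Footprints of uc001rog.3 measured 1.26 CPM for wild type (11 counts), 7.32 and 5.96 for the knockout 1 pair, then 6.65 and 7.34 for the knockout 2 pair. The knockouts overlapped here. edgeR put the log2 change at 2.34 ± 0.37 (SE; adjusted p = 1.59e-06). In the same cluster, uc058mxd.1 (listed length 113) was too sparse to test, with 3 wild-type counts, and its pooled ratio of 2.38 had an exact 95% interval of 0.752 to 12.0. That member was picked out after its values were seen.

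High footprint levels for their RNA marked some members. Footprints of uc003uew.4 were dense, at 24.3 CPM for wild type (213 counts), 80.6 and 96.7 for the knockout 1 pair, then 60.96 and 61.1 for the knockout 2 pair, on an RNA level of a few CPM. edgeR put the log2 change at 1.5 ± 0.14 (SE; adjusted p = 5.61e-15). Its footprint CPM was 9.17 times its RNA CPM in wild type and 12.1 times in the knockouts, against medians of 0.711 and 0.783 over all features at the RNA minimum. For uc001rog.3 the same ratios were 0.201 in wild type and 0.381 in the knockouts.

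Footprints of uc004ely.4 measured 1.26 CPM for wild type (11 counts), 3.80 and 3.70 for the knockout 1 pair, then 4.36 and 6.25 for the knockout 2 pair, a log2 change of 1.70 ± 0.40 (SE; edgeR adjusted p = 0.0018). Footprints of uc001azw.4 measured 1.6 CPM for wild type (14 counts), 4.47 and 4.17 for the knockout 1 pair, then 4.13 and 4.38 for the knockout 2 pair, a log2 change of 1.32 ± 0.38 (SE; edgeR adjusted p = 0.011). In both, every knockout library exceeded wild type more than 2-fold. The transcript uc003fej.4 followed with a log2 change of 1.3 ± 0.42 (SE; edgeR adjusted p = 0.029), and this call was lost with limma-voom (adjusted p = 0.085). With DESeq2 and no filter on mean count, the calls of uc004ely.4, uc001azw.4 and uc003fej.4 were all lost (adjusted p = 0.13, 0.32 and 0.46).

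The 2 most abundant representatives rose with small changes and narrow errors. Footprints of uc003ydk.3 measured 103 CPM for wild type (900 counts), 147 and 137 for the knockout 1 pair, then 184 and 168 for the knockout 2 pair. Its log2 change of 0.53 ± 0.11 (SE) passed the test (edgeR adjusted p = 1.81e-04). Footprints of uc033fan.1 measured 23.6 CPM for wild type (207 counts), 34.9 and 36.4 for the knockout 1 pair, then 37.0 and 39.1 for the knockout 2 pair, with a log2 change of 0.54 ± 0.14 (SE; edgeR adjusted p = 0.0033), a call lost with DESeq2 and no filter on mean count (adjusted p = 0.13). The transcript uc003wlz.4 did not pass (log2 change 0.69 ± 0.25 (SE), edgeR adjusted p = 0.056). It passed without footprint replicate 1 or 2 of knockout 1 or replicate 2 of knockout 2 (adjusted p = 0.045, 0.047 and 0.0499) and among features with a mean of at least 50 counts (0.040). The remaining called representatives, outside the rule for naming and named after their values were seen, were uc002ues.4 (log2 change 1.23), uc010aeu.2 (1.17), uc062vmn.1 (0.66) and uc001omo.3 (1.61). The last had 7 wild-type counts and entered the test only through the knockouts.

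**Figure D3:**
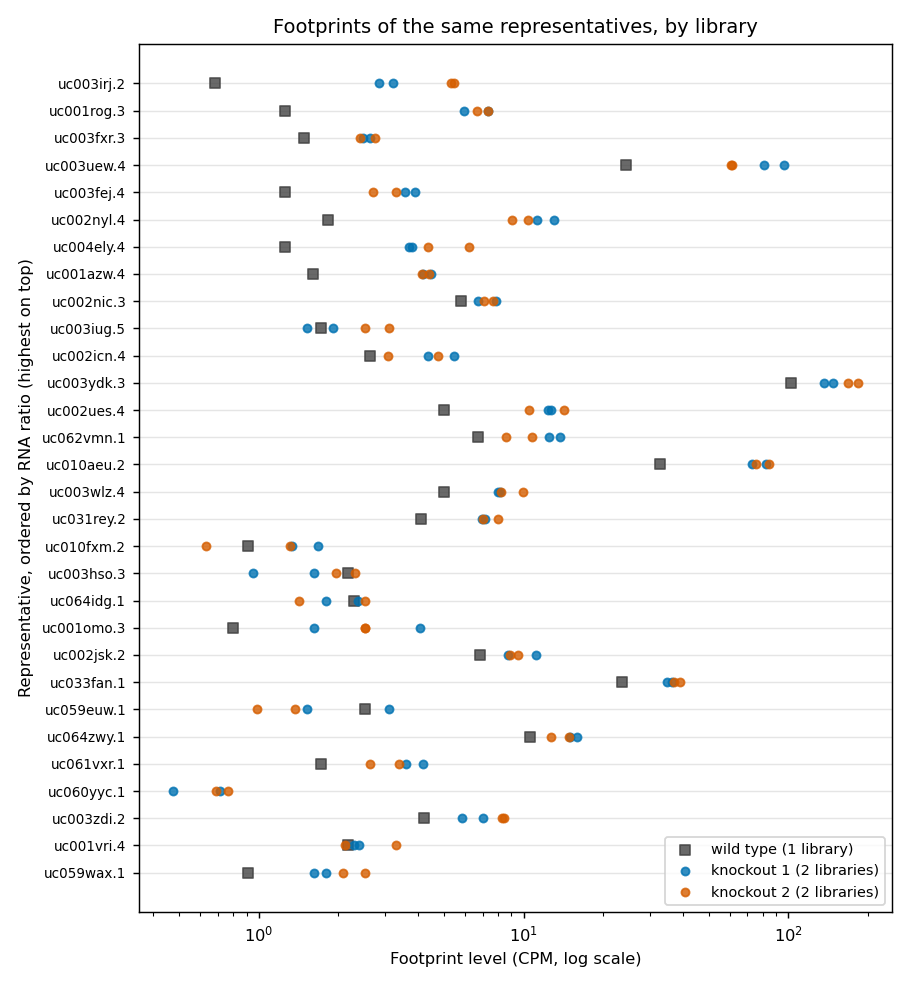
Footprint level (CPM, log scale) of the 30 cluster representatives in each of the 5 footprint libraries, in the row order of the RNA plot, with grey squares for the wild-type library, blue circles for knockout 1 and orange circles for knockout 2. In 24 of 30 rows all 4 knockout points lie to the right of wild type, and uc060yyc.1 has no wild-type point because its count there was 0.

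For several members the higher RNA level had no counterpart in footprints that the test could detect. Footprints of uc059euw.1 measured 2.51 CPM for wild type (22 counts), 1.52 and 3.1 for the knockout 1 pair, then 1.38 and 0.987 for the knockout 2 pair. Wild type lies within the range of the knockouts, and the log2 change of -0.68 ± 0.41 (SE) did not pass (edgeR adjusted p = 0.30). Footprints of uc003hso.3 (listed length 103, representing 4 members) measured 2.17 CPM for wild type (19 counts), 1.62 and 0.954 for the knockout 1 pair, then 1.95 and 2.30 for the knockout 2 pair. Its log2 change was -0.48 ± 0.42 (SE; edgeR adjusted p = 0.51). The remaining named cases were uc064idg.1 (log2 change -0.21 ± 0.40 (SE), edgeR adjusted p = 0.81), uc001vri.4 (0.08 ± 0.39, 0.93; listed length 413) and uc002nic.3 (0.23 ± 0.25, 0.61; listed length 241). Among them only uc002nic.3, with 51 wild-type counts, had every knockout library above wild type. The cluster of uc010fxm.2 (listed length 571, 4 members) held 6 to 8 wild-type counts, and uc010fxm.2 itself had a log2 change of 0.23 ± 0.60 (SE; edgeR adjusted p = 0.86).

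The transcript uc003fxr.3, with an RNA ratio of 2.64, did not pass in footprints either (log2 change 0.70 ± 0.42 (SE), edgeR adjusted p = 0.31). Its footprints were 1.48 CPM for wild type (13 counts), 2.47 and 2.62 for the knockout 1 pair, then 2.75 and 2.41 for the knockout 2 pair, so that all knockout libraries lay above wild type. The other member without a test was uc060yyc.1, the shortest (listed length 42), named after its values were seen. It had 0 wild-type footprint counts. Its mean knockout level was 1.93 times the 0.342 CPM that 3 counts would give in that library, and the exact 95% lower limit of the pooled ratio was 1.47, for counting error only.

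Footprint and RNA changes were then set side by side. The RNA change chose the members, so their difference was not tested. Over 70 members, the log2 RNA ratio and the log2 footprint change correlated with Pearson's r of 0.78 (Spearman's rho 0.75), and over 29 representatives with r of 0.65 (rho 0.52). The points share all libraries, and members of a cluster have similar counts. In 22 of the 23 members of the 3 largest clusters the footprint ratio exceeded the RNA ratio, by a median of 1.04 on the log2 scale, on wild-type footprint counts of only 3 to 16. In the 48 other members with wild-type footprint counts the median of that difference was -0.24, and 14 were above 0. Over all features at the RNA minimum the median difference was 0.14.

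**Figure D4:**
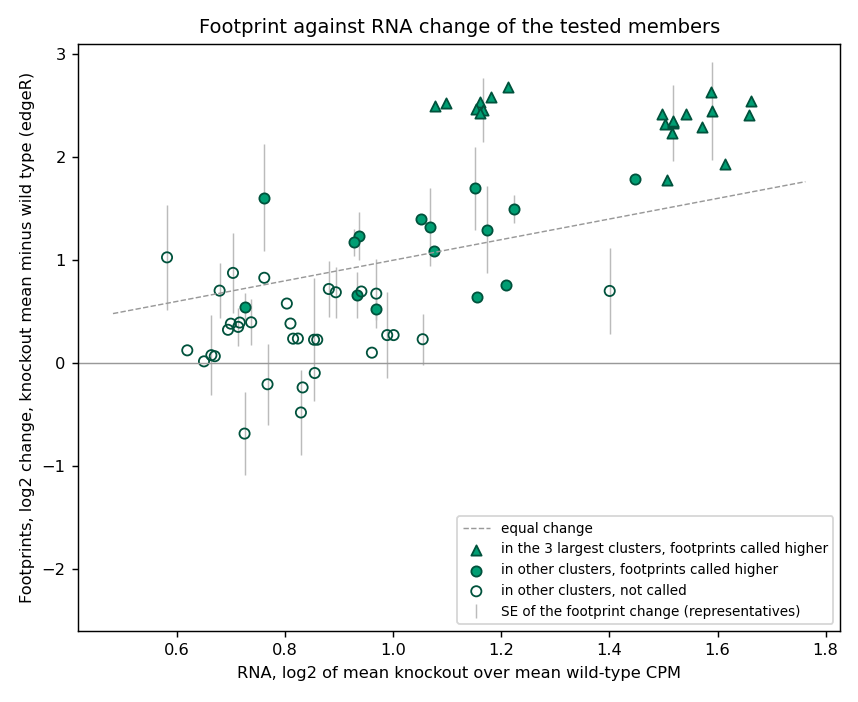
Log2 footprint change of the averaged knockouts over wild type (edgeR, vertical axis) against the log2 ratio of mean knockout to mean wild-type RNA for the 70 tested members. Triangles are members of the 3 largest clusters, filled symbols passed the footprint test, grey bars give the SE for representatives and the dashed line marks equal change. All 22 triangles are filled and lie above the dashed line. Of the 48 other members, 14 lie above that line, some of them filled and some open.

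Each knockout was also set against wild type. Both comparisons share the single wild-type library and are not independent. Knockout 1 had 32 members called higher (2.40% of all features) and 0 called lower (3.64%). Knockout 2 had 37 members higher (7.14%) and 0 lower (8.67%). At an unadjusted p under 0.05 the members lower were 0 in knockout 1 and 1 in knockout 2, and DESeq2 and limma-voom called 0 lower in each. DESeq2 gave an adjusted p to only 9 members in knockout 1 and 34 in knockout 2. Both comparisons called 29 members and 10 of the 13 called representatives, and the medians over 70 tested members were 0.79 and 0.90 on the log2 scale. Among the tested members, 18 entered the test only through the knockouts, where they are high. They hold part of the calls in each comparison, so these counts are no support by themselves.

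The knockouts were finally compared with each other in footprints, a comparison that the wild-type libraries do not enter. Of 72 members, 2 were higher in knockout 1 and 8 lower (edgeR, adjusted p under 0.05), where 4.54% and 3.78% of all features were. The 10 calls lay in 3 clusters, those of uc003irj.2, uc003uew.4 and uc003ydk.3. In all 10 the RNA means differed in the same direction, and how often this holds over all features called was not compared. With DESeq2 only 1 of the 10 was called. For uc003irj.2 the log2 difference, knockout 1 minus knockout 2, was -0.84 (edgeR adjusted p = 0.019) and its RNA in knockout 1 was 0.626 times that in knockout 2. For uc003ydk.3 it was -0.32 (edgeR adjusted p = 0.012), with an RNA ratio of 0.759. For uc003uew.4 it was 0.53 (edgeR adjusted p = 3.52e-05), with an RNA ratio of 1.39. Over 70 members the RNA and footprint differences between knockouts correlated with r of 0.71 (rho 0.69), and over 29 representatives with r of 0.57 (rho 0.51), given as a description. The number of calls was smaller without any 1 of the knockout footprint libraries, which leaves 1 library in that knockout. How many of all features were called in those runs, or with DESeq2, was not compared. The drop can therefore not be read as particular to the members.

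**Figure D5:**
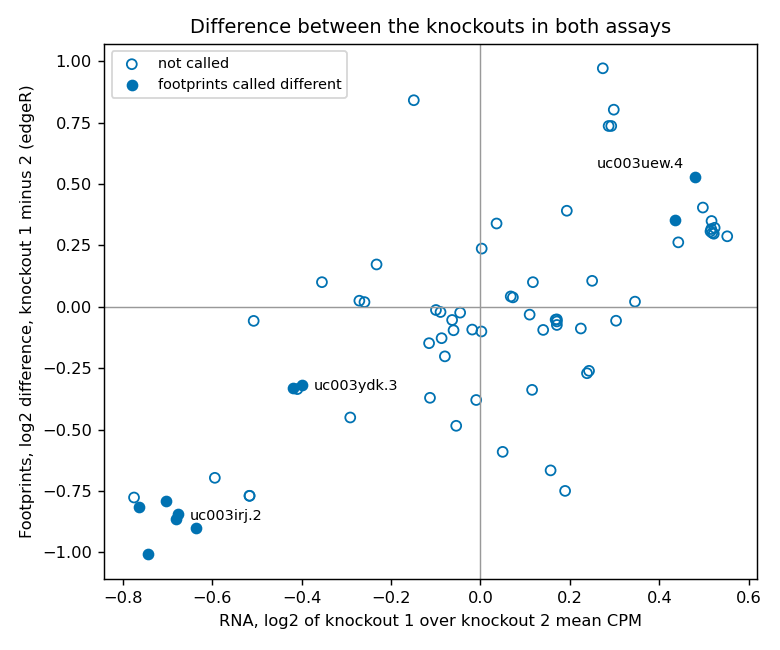
Log2 footprint difference between knockout 1 and knockout 2 (edgeR, vertical axis) against the log2 ratio of their mean RNA levels for the 70 tested members, with filled points for differences that passed the test. All 10 filled points lie in the quadrants where both assays differ in the same direction, and the representatives of the 3 clusters that hold them are labelled.

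The listed length, whose unit is not stated, was not used in the choice. Members had a median listed length of 263.5 and a range of 42 to 4646, against a median of 287 over all features at the RNA minimum. By class, 9 members (12.5%) had a length up to 100, the next 17 (23.6%) up to 200, 23 (31.9%) up to 400, 16 (22.2%) up to 800 and 7 (9.72%) over 800. The shares among all those features were 10.9%, 26%, 24.8%, 24.0% and 14.3%. Taken as 1 feature per cluster, the representatives had a median of 234, against 463 over 7341 features that had the highest knockout RNA level in each block of 20 lines. Among features below 10 CPM in the knockouts the medians were 222.5 over 24 representatives and 432 over 2258 features. These sets were not picked alike. A representative is the highest member of its cluster, while each block gave the highest of all its features, member or not. The gap between these medians can therefore not be read as a trait of the members. The representatives are also chosen on RNA ratio, so this is a description. Footprints were called higher for 10 of 17 representatives with a listed length over 200, where 1506 of 26487 features of that length (5.69%) were. Of these 10, 2 (uc003irj.2 and uc001omo.3) entered the test only through the knockouts, where they are high. Up to 200 footprints were called higher for 3 of 13 representatives, of which uc060yyc.1 was not tested, where 538 of 17923 features of that length (3.0%) were. The difference between the length classes was not tested.

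The set depends on both wild-type libraries. Without wild-type replicate 1 the rule gave 158 features, of which 52 (32.9%) had higher footprints and 6 lower ones, and without replicate 2 it gave 221, of which 50 (22.6%) were higher and 3 lower. With the ratio raised to 1.6 it gave 28 features in 10 clusters, 25 of them (89.3%) higher in footprints. All members of the clusters of uc003irj.2 and uc001rog.3, 8 in each, are among the 28. They hold 11 calls that entered the test only through the knockouts, where they are high. The share is therefore no support by itself. DESeq2 gave an adjusted p to 12 of 72 members and called 8 of them (2.76% of all features with an adjusted p), and 19 when no feature was set aside by its filter on mean count (0.585%). Limma-voom called 33 (3.30%). Of the members with a DESeq2 adjusted p, 3 of 9 were called in knockout 1 and 19 of 34 in knockout 2. The shares of all features with an adjusted p were 2.11% and 2.28%.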

How the data were processed

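Each deposited file holds, per the values, whole-number counts per transcript that the authors did not normalise, with a listed length in a second column, 1 file per library and 182398 rows in the same order. Per the submitters' processing notes, the build was hg38 and the tools listed, without role or order, were TopHat2 2.0.9, Bowtie2 2.1.0 and CASAVA 1.8. The counting program, its strand setting and its treatment of shared reads are not given in the sources used here, so overlapping, antisense and duplicated transcripts cannot be told apart. Per the labels' protocols, footprints were made with RNase I and ribosome pelleting, and RNA libraries with a stranded TruSeq mRNA kit.

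Rows identical in all 11 files were merged, and CPM was taken over merged rows. The 87 rows behind the 72 members were therefore counted once per distinct count pattern. The footprint test ran in R 4.3.3 and was edgeR 4.0.16's (quasi-likelihood, robust, two-sided, TMM). It took features with at least 10 counts in at least 2 footprint libraries. All 5 libraries shared 1 spread, and Benjamini-Hochberg adjustment ran over all features. The procedure was also run on simulated counts, drawn with 1 spread common to all features and libraries. That run cannot show whether the wild-type library varies like the knockout pairs. The SE is the log2 change over the square root of the F statistic. Alternatives used DESeq2 1.42.0 and limma-voom (limma 3.58.1).

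The members and lists were chosen with earlier results of these data known. Representatives named are the 8 with the highest RNA ratio, those of the 5 clusters with most members (ties by RNA ratio), the 5 most abundant, the 5 largest and 5 lowest footprint changes among those with at least 10 wild-type footprint counts, any 3 with lower footprints, and 2 features on either side of the threshold.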

Additional observations from a re-analysis of the deposited data

Results flagged for a closer look

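Footprints of 3 of 30 representatives differed between the knockouts when these were tested directly against each other (edgeR, adjusted p under 0.05). Their rise over wild type was therefore unequal. Of all features tested, 4.54% were called higher in knockout 1 and 3.78% lower, so the number of 3 is not read as a trait of the members. The log2 difference, knockout 1 minus knockout 2, was -0.84 for uc003irj.2, 0.53 for uc003uew.4 and -0.32 for uc003ydk.3. The call for uc003uew.4 held in every alternative run, including DESeq2 with and without independent filtering (adjusted p = 0.0054 and 0.0088). That for uc003irj.2 was lost without replicate 1 of knockout 1 (-0.74, adjusted p = 0.22) and without replicate 1 (-0.85, 0.13) or 2 (-0.85, 0.060) of knockout 2. DESeq2 gave it no adjusted p with independent filtering, and without that filtering the call was lost (-0.84, adjusted p = 0.72). That for uc003ydk.3 was lost with DESeq2 (-0.32, adjusted p = 0.075, or 0.12 without independent filtering), without replicate 2 of knockout 1 (-0.27, 0.065) and without replicate 1 of knockout 2 (-0.23, 0.30).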

How the results depend on the processing

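No member was called lower in footprints against wild type under any alternative fit run on the 72 members. Under the main filter, 18 of them passed only through the knockouts, where they are high, so this is no support by itself. The rule gave 117, 28 and 7 features at ratios of 1.3, 1.6 and 2, and 27 with a minimum of 5 CPM. Without 1 RNA library it gave 79 to 221. With a replicate block, each knockout library set against the wild-type library of its own number, it gave 88. Footprints were higher in 11.1% of the 72 members with DESeq2, which gave only 12 an adjusted p, and in 26.4% without its independent filtering. Alternatives chosen after seeing the data changed the membership. They gave 89.3% (ratio 1.6), 85.7% (ratio 2) and 30.6% (outside the 3 largest clusters). When the members were chosen without 1 RNA library the shares were 22.6% to 45.6%. At a ratio of 2 there were 7 features in 2 clusters, and all 6 calls lay in the cluster of uc001rog.3. At 1.6, 11 of the 25 calls entered the test only through the knockouts, where they are high. The shares at 1.6 and 2 are therefore no support by themselves. The median log2 change was 0.93 at a mean count of at least 50, 1.06 without merging, 0.64, 1.94 and 2.34 at ratios of 1.3, 1.6 and 2, and 0.53 outside the 3 largest clusters. It was 0.76 to 0.93 without 1 footprint library and 0.26 to 0.82 for members chosen without 1 RNA library (0.43 and 0.26 without wild-type replicates 1 and 2, 0.53 without replicate 2 of knockout 1, 0.67 without replicate 1 of knockout 2). Chosen without wild-type replicates 1 and 2, the shares were 32.9% and 22.6%. For knockout 1, DESeq2 gave 4.17% (of 72 members, only 9 of them with an adjusted p), or 20.8% without independent filtering, and limma-voom 27.8%. Its median was 1.02 at a mean count of at least 50, 1.11 without merging and 0.72 to 0.97 without 1 footprint library. For knockout 2, DESeq2 gave 26.4% (of 72 members, only 34 of them with an adjusted p). The median for knockout 2 was 1.11 without merging and 0.73 with 1 member per cluster. Between the knockouts, 13.9% of members were called, against 1.39% with DESeq2 with or without independent filtering, 4.17% at a mean count of at least 50 and 1.39% to 6.94% without 1 footprint library. The cause of these changes was not tested. The log2 change of uc001vri.4, which passed no test, ranged from -0.049 without footprint replicate 2 of knockout 2 to 0.24 without its replicate 1.

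With the replicate block, 12.5% of members were called between the knockouts, and no other call could be blocked, since the wild-type footprint library carries no number. Deviations of same-numbered libraries correlated at -0.0084 in footprints and at -0.087, 0.15 and 0.065 in RNA, so the numbers were not taken as pairs. The single wild-type footprint library could not be left out, and its depth, a median of 15 counts over members, limits every comparison with wild type.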
